A study of Homo sapiens with 12 samples.

Results

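The 37 genes described here encode enzymes of cholesterol and fatty acid synthesis and the proteins that control their transcription. They were chosen by symbol as genes of the pathway and matched by Ensembl identifier to the 60666 genes of the count files. All 37 were found, and all 37 were among the 14274 genes tested after a filter on low counts. By role they are 8 enzymes of the mevalonate and isoprenoid steps, 11 enzymes from squalene to cholesterol, 6 genes of SREBP control and sterol transport, 7 genes of acetyl-CoA supply and fatty acid synthesis, and 5 elongases and desaturases.

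RNA came from Huh7, an established human hepatocellular carcinoma cell line, exposed for 24 h or 48 h to Molidustat at 25 µM or, as the control, to its solvent DMSO alone. Molidustat blocks the prolyl hydroxylases that mark the α subunits of hypoxia-inducible factor (HIF) for degradation. The 4 groups, DMSO 24 h, Molidustat 24 h, DMSO 48 h and Molidustat 48 h, hold 3 libraries each, 12 in all, and carry no genetic change that the labels name. All were unsorted cultures of a single line. The study's methods call the libraries of a group biological replicates, whereas the series text speaks of RNA extracted in triplicate. Whether the libraries of a group came from separate passages or days is not given in the sources used here. The p-values therefore measure only the spread between these libraries. Between 1499273 and 9179389 counts fell on genes per library. Levels are counts scaled to a common library total after TMM normalization (CPM), and because the libraries read the 3′ ends of transcripts, CPM were compared between libraries and not between genes. In such bulk samples, fewer cells of a type and less RNA per cell cannot be told apart.

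Sterol synthesis runs from acetyl-CoA through mevalonate, isoprenoid diphosphates and squalene to cholesterol, and fatty acid synthesis uses the same acetyl-CoA. Most of these genes are targets of the SREBP transcription factors, which stay in the endoplasmic reticulum, bound to SCAP, as long as INSIG proteins hold the complex there. When sterols are low, SCAP carries SREBP to the Golgi apparatus, where proteases release the part that enters the nucleus.

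One library has to be described before the results. DMSO 48 h replicate 2 had the lowest count total (1499273, against 2312396 to 9179389 in the 11 others). Reads on no annotated feature made up 50.4% of its listed reads, against 17.1 to 25.6% in the others, and its TMM factor was 0.629, against 1.01 to 1.08. Across 14274 genes, its log2(CPM + 1) values correlated with those of the other libraries at r = 0.731 to 0.799, whereas the others correlated with each other at r = 0.88 to 0.966. The counts over the 37 genes, and most of the single values at 48 h, are therefore given with and without it. All treatment contrasts at 1 time use the DMSO libraries of that time only.

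Hepatocyte-lineage transcripts were present in every library. The summed level of 7 such genes (ALB, AFP, TTR, HNF4A, FGB, TF and AHSG) was 10073 to 13122 CPM with DMSO and 14802 to 19090 CPM with Molidustat at 24 h, and 7639 to 13940 and 18423 to 22961 CPM at 48 h. The Molidustat libraries lay wholly above the DMSO libraries at both times, and the part of this in the results was not tested. AFP, the fetal counterpart of albumin, had the most counts of the 7, with no correction for transcript length. TF, which encodes transferrin, showed log2 fold changes of 1.26 (SE 0.42, adjusted p = 0.561) at 24 h and 1.52 (SE 0.42, adjusted p = 0.193) at 48 h by edgeR. It was called at both times when DMSO 48 h replicate 2 was left out (1.27, adjusted p = 0.00163, and 1.11, adjusted p = 0.0351, by edgeR). Of the 7, HNF4A, a transcription factor of hepatocytes, was the one with negative values, -0.24 (SE 0.79) at 24 h and -1.88 (SE 0.82, unadjusted p = 0.0367, adjusted p = 0.337 by edgeR) at 48 h. It was highest in DMSO 48 h replicate 2, and the 48 h value was -0.05 (SE 0.59) without that library. Of 8 genes that mark other liver cells, ACTA2, a gene of activated stellate cells, had no count in any library. PTPRC, the pan-leukocyte marker, and the stellate and cholangiocyte genes COL1A1 and KRT7 did not exceed 1 CPM in any library. COL1A2, a collagen gene of stellate cells, was at 0.207 to 0.689 CPM with DMSO and 1.58 to 2.88 CPM with Molidustat at 24 h, and at 1.63 to 3.41 and 3.86 to 6.07 CPM at 48 h. It was wholly higher with Molidustat at both times and called at neither, with log2 fold changes of 2.30 (SE 0.97) and 1.06 (SE 0.87). The macrophage gene CD68, at 1.15 to 6.81 CPM, showed 0.49 (SE 0.91) and 0.25 (SE 0.92), and the endothelial gene PECAM1, at 0 to 6.45 CPM, 0.48 (SE 1.70) and -1.19 (SE 1.69). The 8 genes summed to 112 to 1052 CPM, and most of these counts, with no correction for transcript length, were of SOX9, which liver tumour cells can also express. SOX9 reached 1048 CPM in DMSO 48 h replicate 2, against 106 to 452 CPM elsewhere. Its log2 fold change was 0.02 (SE 0.45) at 24 h and -1.97 (SE 0.46, unadjusted p = 0.00063, adjusted p = 0.125 by edgeR) at 48 h, where it was wholly lower with Molidustat. Leaving out that library gave -1.11 (SE 0.28, unadjusted p = 0.000884, adjusted p = 0.13 by edgeR) at 48 h, again with separate groups. The part of these markers in the results was not tested.

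The response to Molidustat was present in the libraries as labelled. BNIP3, a HIF target gene of mitophagy, was higher in all Molidustat libraries, with a log2 fold change of 2.81 (SE 0.34, adjusted p = 0.000977) at 24 h and 2.68 (SE 0.34, adjusted p = 0.00149) at 48 h (edgeR quasi-likelihood test, Benjamini-Hochberg adjusted over all genes tested). PFKFB4, a regulator of glycolysis, was also called at both times, with log2 fold changes of 4.16 (SE 0.63) and 3.24 (SE 0.59). PDK1, the kinase that inhibits pyruvate dehydrogenase, was called at 24 h (3.60, SE 0.68) and not at 48 h (1.64, SE 0.63, adjusted p = 0.271, or 2.47, SE 0.56, adjusted p = 0.0698 without DMSO 48 h replicate 2, by edgeR). NDRG1, a stress-response gene, showed 2.52 (SE 0.58, adjusted p = 0.135) and 2.20 (SE 0.57, adjusted p = 0.178) by the same edgeR test. Its 24 h change passed when DMSO 48 h replicate 2 was left out (2.52, SE 0.53, adjusted p = 0.0265 by edgeR). EGLN3, a prolyl hydroxylase, and ANKRD37 were under 18 CPM in every library, with log2 fold changes of 1.05 and 1.43 at 24 h and 0.63 and 1.62 at 48 h, neither called. EGLN3 was at 1.71 (adjusted p = 0.845 by edgeR) at 48 h without DMSO 48 h replicate 2, its highest DMSO library, and the groups were then separate. CA9, a carbonic anhydrase, was below the count filter and at most 7.14 CPM, with no count in the DMSO 24 h libraries and 0.359 to 1.73 CPM in the Molidustat 24 h libraries. It passed the filter without DMSO 48 h replicate 2 and was not called by edgeR (24 h unadjusted p = 0.0303, adjusted p = 0.487, and adjusted p = 0.872 at 48 h), and no fold change is given at these counts.

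Among the 37 lipid genes, INSIG2 was the only one called at either time by edgeR with all 12 libraries and the filter on low counts. It was higher at both times. Calls of other genes by other fits are given below. INSIG2 (ENSG00000125629, chr2:118088452-118110997 on the plus strand of GRCh38) encodes one of the 2 proteins that retain the SCAP and SREBP complex in the endoplasmic reticulum, and it overlaps no other annotated gene. Its level was 55.6, 48.1 and 51.4 CPM in the DMSO 24 h libraries and 229, 163 and 193 CPM in the Molidustat 24 h libraries. At 48 h it was 87.2, 97.9 and 68.9 CPM with DMSO and 313, 255 and 332 CPM with Molidustat. Every Molidustat library lay above every DMSO library, of either time, and the DMSO 48 h replicate 2 library, with 97.9 CPM, was close to its group. The fold change was 3.77 at 24 h (log2 1.91, SE 0.29, 95% interval 1.30 to 2.53, adjusted p = 0.00548) and 3.56 at 48 h (log2 1.83, SE 0.29, 95% interval 1.21 to 2.45, adjusted p = 0.0113), both from the quasi-likelihood test of edgeR, adjusted by the Benjamini-Hochberg method over 14274 genes. Called genes made up 0.231% of all genes tested at 24 h in the higher direction and 0% in the lower, and 0.21% and 0.021% at 48 h.

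Without DMSO 48 h replicate 2, INSIG2 changed by 1.92 on the log2 scale at 24 h (SE 0.24, adjusted p = 0.000153) and by 1.93 at 48 h (SE 0.27, adjusted p = 0.00143) in the same edgeR test, where calls made up 0.741% of genes higher and 0.0328% lower at 24 h, and 0.315% and 0.0328% at 48 h. The 24 h call was lost without DMSO 24 h replicate 1 (adjusted p = 0.0597), replicate 2 (0.0732) or replicate 3 (0.0515), with log2 fold changes of 1.97, 1.86 and 1.89 by the edgeR fit. The 48 h call was lost without Molidustat 48 h replicate 1 (1.80, adjusted p = 0.0624) or replicate 3 (1.75, adjusted p = 0.0801), also by edgeR. The difference of the INSIG2 response between the times was -0.08 on the log2 scale (SE 0.40, 95% interval -0.93 to 0.76, adjusted p = 0.98).

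The start of INSIG2 holds the letters ACGTG, the core of the hypoxia response element to which HIF can bind. They were searched on both strands of RefSeq promoter windows of 300 bases (250 before to 50 after each start, build GRCh38.p14), which 33 of the 37 genes had. The following stretches are printed 5′ to 3′ on the plus strand, which is the strand of these genes, with the motif in capitals, because INSIG2 is the called gene, INSIG1 its paralogue, and SREBF2, a gene of the SREBPs themselves, because it holds the core of the sterol regulatory element that SREBPs bind.
INSIG2, chr2:118088366-118088390: ctcgcaggtcCACGTcttattgaca
INSIG2, chr2:118088565-118088589: agcgcgggtgACGTGgtgctgagga
INSIG1, chr7:155297672-155297696: ggcgtgtgcgCACGTcatatgggcc
INSIG1, chr7:155297814-155297838: gggcaggctcACGTGatgcgggccc
SREBF2, chr22:41832963-41832989: gacgcgccatCACCCCAcgcaccgctt
The first INSIG2 stretch carries the core on the opposite strand, 95 bases before an annotated start, and the second lies 25 bases after another annotated start of the gene. The first INSIG1 stretch carries it on the opposite strand, 196 bases before the start, and the second, 54 bases before it, reads ACGTG within the palindrome CACGTG and so on both strands. The core ACGTG occurred in 12 of the 33 genes, against 24.9% of all genes with a window and 21.4% of the 35116 windows. The E-box CACGTG, which contains that core, occurred in 5 of 33 genes (8.77% of all genes, 7.26% of windows), INSIG1 among them. CCAAT, the letters bound by NF-Y, occurred in 24 of 33 genes (39.7% of all genes, 34.6% of windows). CACCCCA, the core searched for the sterol regulatory element, occurred in 7 of 33 genes (9.72% of all genes, 8.08% of windows), ACLY, ACSS2, EBP, ME1, MVD, MVK and SREBF2, in the last 132 bases before its start. Such matches describe the letters and are not binding sites shown by these data.

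The other genes of SREBP control did not pass the test at either time. INSIG1, the other retention protein and itself an SREBP target, was at 322, 240 and 342 CPM in the DMSO 24 h libraries and 337, 277 and 520 CPM with Molidustat. The 48 h values were 526, 87.3 and 568 CPM with DMSO and 574, 541 and 679 CPM with Molidustat. The groups overlapped at both times, and the single low value was DMSO 48 h replicate 2. The log2 fold change of INSIG1 was 0.32 (SE 0.50, 95% interval -0.73 to 1.38) at 24 h and 0.60 (SE 0.50, -0.46 to 1.65) at 48 h, the latter 0.12 (SE 0.28) without that library.

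SREBF2, which encodes the SREBP most active on sterol genes, was at 15.4, 17.3 and 25.0 CPM with DMSO and 36.6, 32.4 and 27.9 CPM with Molidustat at 24 h. With 48 h of treatment it was at 32.3, 31.9 and 42.3 CPM with DMSO and 36.4, 33.5 and 36.8 CPM with Molidustat. The libraries were separate at 24 h and overlapped at 48 h, where all 6 were above the DMSO 24 h level. The log2 fold change of SREBF2 was 0.74 at 24 h (SE 0.32, unadjusted p = 0.0365, adjusted p = 0.885 by edgeR) and -0.00 at 48 h (SE 0.32), or -0.08 (SE 0.33) there without DMSO 48 h replicate 2. SREBF1, which encodes the SREBP of fatty acid genes, was at 43.6, 26.2 and 21.5 CPM with DMSO and 47.7, 62.5 and 30.4 CPM with Molidustat at 24 h. At 48 h its values were 45.4, 44.7 and 21.5 CPM with DMSO and 57.1, 77.6 and 44.5 CPM with Molidustat. These overlapped at both times, with log2 fold changes of 0.62 (SE 0.41) and 0.70 (SE 0.41). SCAP, the SREBP escort, differed by 0.28 (SE 0.40) and -0.12 (SE 0.40), and the latter turned to 0.13 (SE 0.39), with separate groups, without that library. STARD4, a cytosolic sterol carrier, differed by 0.33 (SE 0.43) and 0.34 (SE 0.44).

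**Figure D1:**
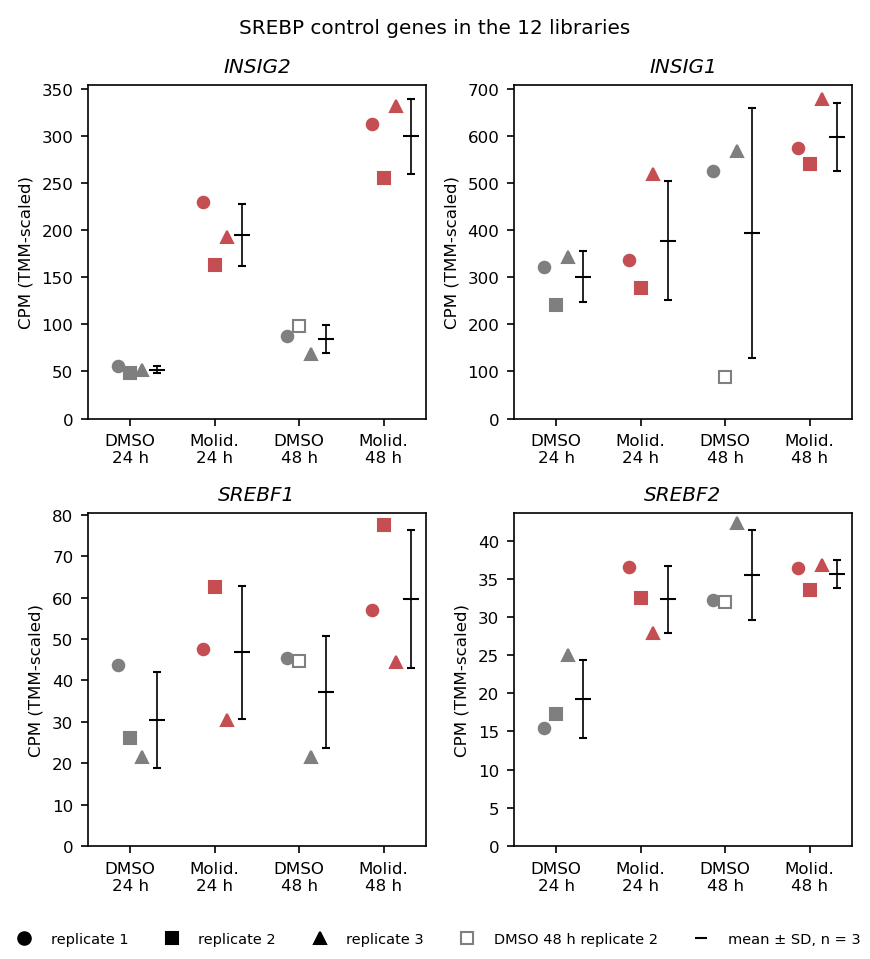
CPM after TMM scaling (vertical axis, linear from 0) of INSIG2, INSIG1, SREBF1 and SREBF2 in the 3 libraries of each group, with the mean and SD beside them; the open square is DMSO 48 h replicate 2. INSIG2 lies at 163 to 332 CPM in the 6 Molidustat libraries and at 48.1 to 97.9 CPM in the 6 DMSO libraries, and INSIG1 falls to 87.3 CPM in the open square.

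Over all 37 genes, the log2 fold change was positive in 28 at 24 h (background 51.5% of all genes), with a median of 0.33, beside 0.02 for all genes tested. At 48 h, 23 were positive (background 50.4%) and the median was 0.07, beside 0.01. At an unadjusted p under 0.05, 4 genes were higher at 24 h (MVD, INSIG2, SREBF2 and ACSS2, background 3.73%) and none lower (background 1.52%). At 48 h, 3 were higher by that measure (TM7SF2, INSIG2 and AACS, background 4.53%) and 6 lower (HMGCS1, CYP51A1, MSMO1, EBP, SCD and ELOVL6, background 8.81%). With all 12 libraries and the filter on low counts, none of the 37 genes was called lower by edgeR at either time. DESeq2 called 0 lower at 24 h (background 0.0981%) and 1 at 48 h (HMGCS1, background 1.26%), and limma-voom with sample quality weights called 0 at both (background 0% and 0.287%). With DMSO 48 h replicate 2 left out, 29 genes were positive at 24 h (background 52.7%) with a median of 0.34. At an unadjusted p under 0.05 by edgeR there were then 10 higher at 24 h (background 6.19%) and 0 lower (background 2.85%). The 10 were HMGCS1, MVD, LSS, TM7SF2, MSMO1, INSIG2, SREBF2, ACSS2, SCD and FADS2. HMGCS1, MSMO1 and SCD, on the lower side at 48 h with all 12 libraries, were thus on the higher side at 24 h in this fit.

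In each of the 6 genes on the lower side at 48 h, DMSO 48 h replicate 2 stood above all other libraries. HMGCS1, the synthase that makes HMG-CoA, was at 1581, 20459 and 2709 CPM in the DMSO 48 h libraries and 1846, 1838 and 1693 CPM with Molidustat. The Molidustat values lay between the DMSO replicates 1 and 3, and the log2 fold change of -2.20 (SE 0.71, adjusted p = 0.212 by edgeR) became -0.27 (SE 0.31) without replicate 2. CYP51A1, the lanosterol demethylase, was at 822, 9261 and 1353 CPM with DMSO and 1030, 1127 and 866 CPM with Molidustat, and its log2 fold change went from -1.92 (SE 0.68) to -0.12 (SE 0.33). AKAP9 and CYP51A1-AS1 overlap CYP51A1, so its reads may be mixed with theirs or may in part have been set aside as ambiguous. MSMO1, the sterol C4 methyl oxidase, was at 693, 4259 and 872 CPM with DMSO and 703, 635 and 945 CPM with Molidustat, and -1.35 (SE 0.56) became -0.05 (SE 0.30).

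EBP, the sterol isomerase, was at 3555, 14317 and 3756 CPM with DMSO and 3473, 3705 and 3128 CPM with Molidustat at 48 h, and -1.07 (SE 0.48) became -0.10 (SE 0.23). ELOVL6, an elongase of saturated fatty acids, was at 83.0, 569 and 73.6 CPM with DMSO and 87.4, 97.4 and 77.2 CPM with Molidustat, and -1.45 (SE 0.60) became 0.14 (SE 0.31). SCD, the stearoyl-CoA desaturase, turned from -1.41 (SE 0.63) to 0.25 (SE 0.29). In all 6 the other DMSO 48 h libraries overlapped with the Molidustat libraries. Without DMSO 48 h replicate 2, no gene of the 37 was on the lower side at an unadjusted p under 0.05 at 48 h (background 2.92%), 2 were on the higher side (TM7SF2 and INSIG2, background 3.68%), 24 were positive (background 50.9%) and the median was 0.12. With replicate 2 kept and DMSO 48 h replicate 1 left out, edgeR called HMGCS1 (-2.64, adjusted p = 0.0404) and CYP51A1 (-2.35, adjusted p = 0.0471) lower (background 1.82%).

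**Figure D2:**
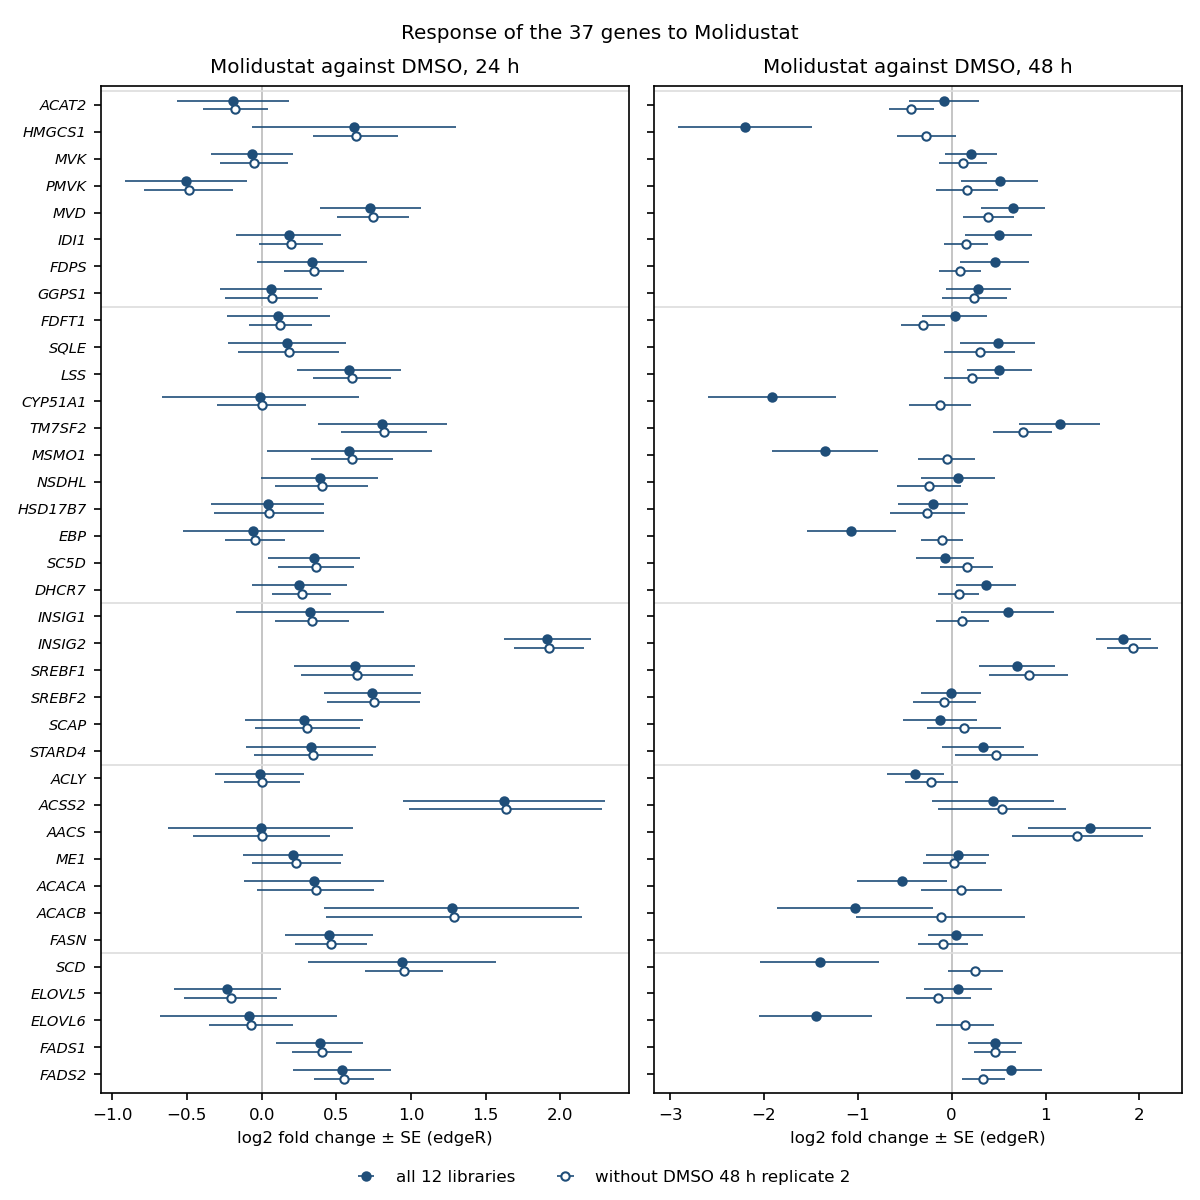
Log2 fold change of Molidustat against DMSO (horizontal axis, ± SE from edgeR) for the 37 genes at 24 h and 48 h, by role from top to bottom, with all 12 libraries (filled) and without DMSO 48 h replicate 2 (open). At 48 h the filled points of HMGCS1, CYP51A1, MSMO1, EBP, SCD and ELOVL6 lie between -2.20 and -1.07 and the open points between -0.27 and 0.25, while INSIG2 is at 1.83 and 1.93.

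DMSO 48 h replicate 2 stood apart over all genes, and the lipid genes were among them. In it, 7 of the 37 genes exceeded 2 times the highest of the 11 other libraries (18.9%, background 10.9%), namely HMGCS1, CYP51A1, ELOVL6, SCD, MSMO1, EBP and ACACB. These 7 genes took 3.94% of the gene counts of that library and 0.748 to 1.34% in the others. A further 3 genes were above the highest other library, which makes 10 (background 24.5%), and 14 were below the lowest (background 29.1%), INSIG1 the farthest. INSIG1 stood at 87.3 CPM there, against 240 to 679 CPM elsewhere, and TM7SF2, a sterol reductase, at 11.7 CPM, against 25.3 to 110 CPM. The 14 include FDPS, IDI1 and DHCR7 of the same pathway as HMGCS1 and CYP51A1, so the sterol genes did not move one way in this library.

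Over the 37 genes, the deviation of DMSO 48 h replicate 2 from the median of the other libraries had a Spearman correlation of 0.52 with the length of a representative transcript. The same correlation was 0.33 over 11464 genes tested, and all points share the 1 library. The 7 genes had a median transcript length of 5245 bases and the other 30 of 2935 bases, although EBP, with 1125 bases, was among the 7. The part of transcript length, of the reads on no annotated feature and of the low depth in these values was not tested.

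**Figure D3:**
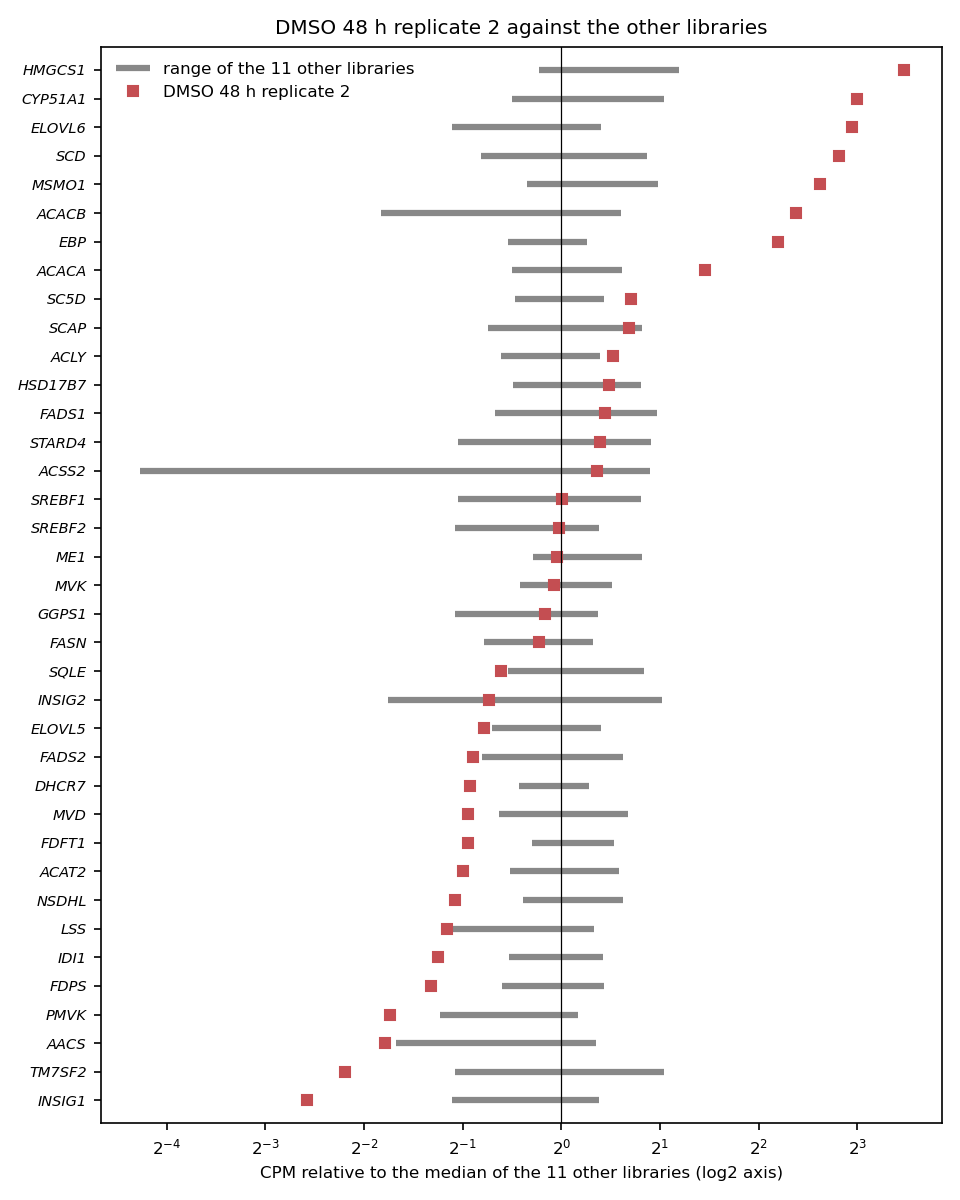
CPM of each of the 37 genes in DMSO 48 h replicate 2 (squares) relative to the median of the 11 other libraries, whose range is the grey bar (horizontal log2 axis), ordered by the square. HMGCS1, at 20459 CPM against at most 4208 CPM elsewhere, is at the top and INSIG1 at the bottom, with 10 squares above and 14 below their bars.

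Leaving the size of the change aside, the Molidustat libraries lay wholly above the DMSO libraries for 10 genes at 24 h (background 7.26%) and for 9 at 48 h (background 9.96%). No gene of the 37 lay wholly below at either time (background 5.02% and 8.02%). Of these, 6 were separate in the same direction at both times (16.2%, background 2.2%), MVD, TM7SF2, DHCR7, INSIG2, FADS1 and FADS2, and none in the lower direction (background 0.813%). The 24 h and 48 h groups share no library. With DMSO 48 h replicate 2 left out they were the same 6 (background 2.9%), with 0 lower (background 1.61%). Those libraries again separated at 24 h 10 genes in the higher direction (background 7.33%) and 0 in the lower (background 4.64%), and at 48 h 11 in the higher (background 12.7%) and 1, ACAT2, in the lower (background 15.7%). Apart from INSIG2, none of the 6 passed the test at either time.

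MVD, the mevalonate diphosphate decarboxylase, was at 261, 246 and 228 CPM with DMSO and 354, 564 and 302 CPM with Molidustat at 24 h. Its 48 h values were 344, 184 and 368 CPM with DMSO and 449, 437 and 530 CPM with Molidustat. Its log2 fold change was 0.73 (SE 0.34, 95% interval 0.00 to 1.45) and 0.65 (SE 0.34, -0.07 to 1.38), the latter 0.39 (SE 0.27) without DMSO 48 h replicate 2, which was its lowest DMSO library.

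TM7SF2, the sterol Δ14 reductase, was at 25.3, 28.1 and 31.4 CPM with DMSO and 58.4, 57.1 and 33.1 CPM with Molidustat at 24 h. By 48 h it was at 51.2, 11.7 and 53.4 CPM with DMSO and 75.3, 82.8 and 110 CPM with Molidustat. The log2 fold change of TM7SF2 was 0.81 (SE 0.43) at 24 h and 1.15 (SE 0.43, adjusted p = 0.256 by edgeR) at 48 h, or 0.76 (SE 0.32) without DMSO 48 h replicate 2. TM7SF2 overlaps VPS51. DHCR7, the last reductase of one branch to cholesterol, was at 381, 432 and 352 CPM with DMSO and 475, 458 and 455 CPM with Molidustat at 24 h, and at 516, 250 and 531 CPM against 562, 532 and 576 CPM at 48 h. The groups were separate but close, with log2 fold changes of 0.25 (SE 0.32) and 0.36 (SE 0.32), the latter 0.08 (SE 0.22) without that library.

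FADS1, the Δ5 desaturase of polyunsaturated fatty acids, was at 546, 652 and 768 CPM with DMSO and 863, 843 and 870 CPM with Molidustat at 24 h. At 48 h it was at 1093, 1182 and 1207 CPM with DMSO and 1703, 1612 and 1475 CPM with Molidustat. Its 4 groups did not overlap and stood in the order DMSO 24 h, Molidustat 24 h, DMSO 48 h and Molidustat 48 h. The log2 fold change with Molidustat was 0.39 (SE 0.29, 95% interval -0.23 to 1.01) at 24 h and 0.46 (SE 0.29, -0.16 to 1.08) at 48 h. FADS2, the Δ6 desaturase, was at 262, 250 and 227 CPM with DMSO and 372, 397 and 304 CPM with Molidustat at 24 h, and at 482, 214 and 458 CPM against 614, 590 and 595 CPM at 48 h. Its log2 fold change was 0.54 (SE 0.33) and 0.64 (SE 0.33), or 0.34 (SE 0.23) at 48 h without DMSO 48 h replicate 2. FADS1 and FADS2 lie on opposite strands of chromosome 11 and overlap in the annotation, so reads could have been given to the wrong gene or set aside as ambiguous.

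**Figure D4:**
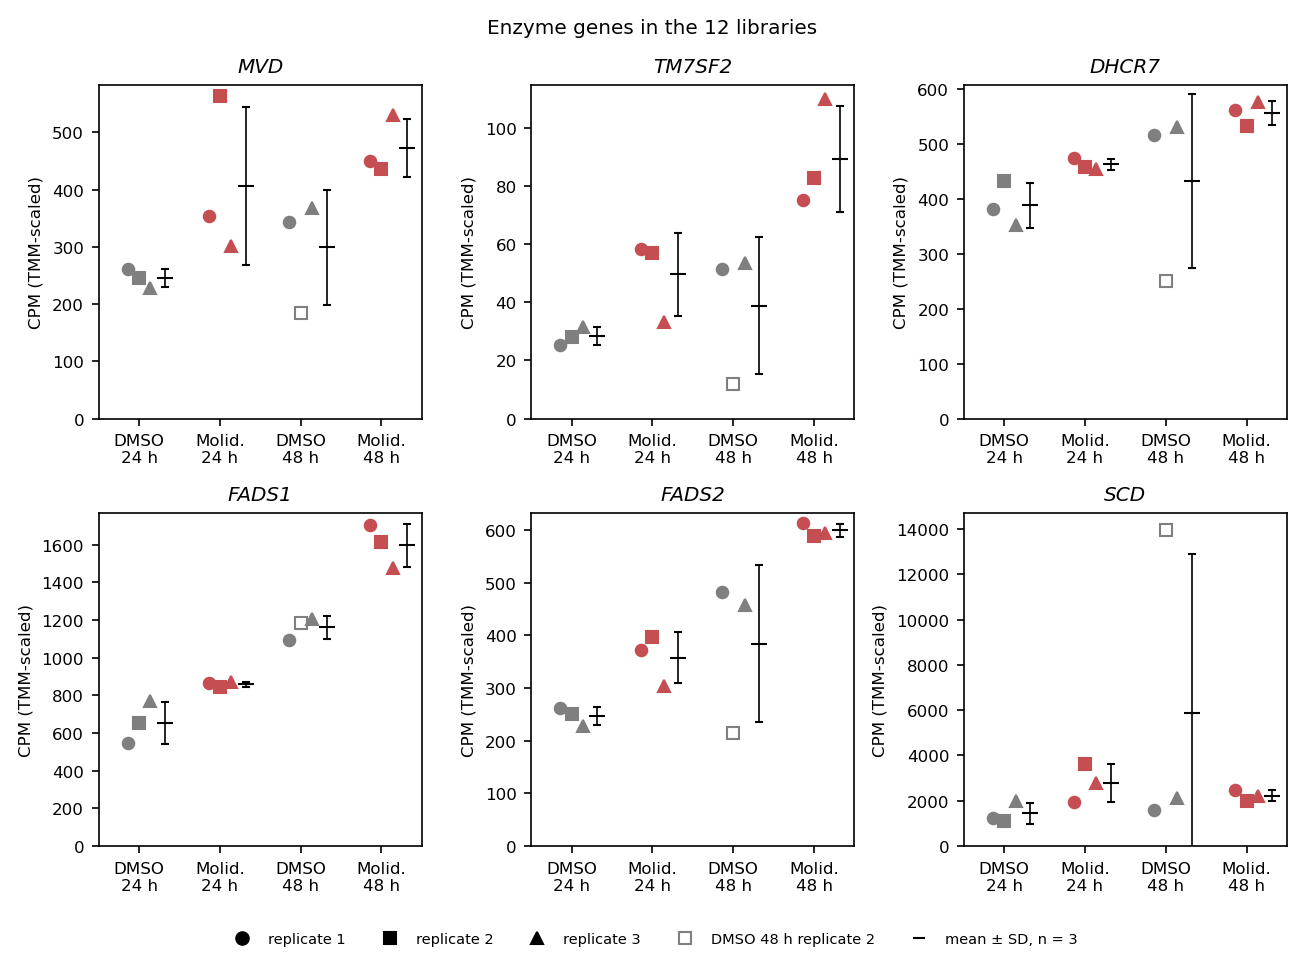
CPM after TMM scaling (vertical axes, linear from 0) of MVD, TM7SF2, DHCR7, FADS1, FADS2 and SCD in the 3 libraries of each group, with mean and SD; the open square is DMSO 48 h replicate 2. In the first 5 genes the Molidustat libraries lie above the DMSO libraries of the same time, and in SCD the open square, at 13981 CPM, lies above all others and its group's SD bar is cut at 0.

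SCD, shown for its values and not by the rule for the other genes, was at 1233, 1126 and 1970 CPM with DMSO and 1926, 3614 and 2774 CPM with Molidustat at 24 h. At 48 h its DMSO values were 1592, 13981 and 2103 CPM and its Molidustat values 2462, 1983 and 2222 CPM. The 24 h groups overlapped by 1 library. The log2 fold change of SCD at 24 h was 0.94 (SE 0.63, adjusted p = 0.999 by edgeR), or 0.95 (SE 0.26, adjusted p = 0.143) without DMSO 48 h replicate 2, which is in neither 24 h group but shares the fit, the filter on low counts and the adjustment. DESeq2 without that library called SCD higher at 24 h (0.94, adjusted p = 0.0273, background 1.44%).

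Of the 8 mevalonate and isoprenoid enzymes, 0 were called at either time by edgeR or limma-voom with all 12 libraries and the filter on low counts. DESeq2 called HMGCS1 lower at 48 h (background 1.26%). Of all 14274 genes, edgeR, DESeq2 and limma-voom called 33, 137 and 64 higher at 24 h and 30, 179 and 263 at 48 h. They called 0, 14 and 0 lower at 24 h and 3, 180 and 41 at 48 h. The median log2 fold change of the 8 enzymes was 0.12 at 24 h and 0.37 at 48 h, or 0.14 at 48 h without DMSO 48 h replicate 2. At 24 h, values ran from -0.50 (SE 0.41) for PMVK, the phosphomevalonate kinase, to MVD. PMVK was at 0.51 (SE 0.41) at 48 h, or 0.16 (SE 0.33) without that library. ACAT2, the cytosolic acetoacetyl-CoA thiolase, showed -0.19 (SE 0.37) and -0.08 (SE 0.37) at the 2 times, and -0.43 (SE 0.24) at 48 h without it, where its Molidustat libraries were wholly below. MVK, the mevalonate kinase, showed -0.07 (SE 0.28) and 0.21 (SE 0.28), the latter 0.12 (SE 0.26) without it, and IDI1, the isopentenyl diphosphate isomerase, 0.18 (SE 0.35) and 0.50 (SE 0.36), the latter 0.15 (SE 0.24) without DMSO 48 h replicate 2. FDPS and GGPS1, which make farnesyl and geranylgeranyl diphosphate, showed 0.33 (SE 0.37) and 0.06 (SE 0.34) at 24 h, and 0.46 (SE 0.37) and 0.29 (SE 0.34) at 48 h, where FDPS was at 0.09 (SE 0.23) without that library.

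Of the 11 enzymes from squalene to cholesterol, 9 were positive at the earlier time (background 51.5%) and 6 at the later one (background 50.4%). Their medians were 0.25 and 0.03 (-0.05 without DMSO 48 h replicate 2). With all 12 libraries and the filter on low counts, 0 were called by edgeR, DESeq2 or limma-voom. Of all 14274 genes, these called 33, 137 and 64 higher at 24 h and 30, 179 and 263 at 48 h. Called lower were 0, 14 and 0 at 24 h and 3, 180 and 41 at 48 h. SQLE, the squalene epoxidase, ranged from 93.7 to 256 CPM over the 12 libraries and showed 0.17 (SE 0.39) and 0.49 (SE 0.40), the latter 0.30 (SE 0.38) without that library. FDFT1, the squalene synthase, showed 0.11 (SE 0.35) and 0.03 (SE 0.35), and the 48 h value turned to -0.30 (SE 0.24) without it. LSS, the lanosterol synthase, showed 0.59 (SE 0.35) and 0.51 (SE 0.35), the latter with separate groups and at 0.21 (SE 0.29) without DMSO 48 h replicate 2. The remaining 3, NSDHL, HSD17B7 and SC5D, were between 0.04 and 0.39 at 24 h and between -0.20 and 0.07 at 48 h. Leaving out that library turned NSDHL from 0.07 to -0.24 (SE 0.34) and SC5D from -0.07 to 0.16 (SE 0.28) at 48 h.

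Of the 7 genes of acetyl-CoA supply and fatty acid synthesis, 0 were called by edgeR, DESeq2 or limma-voom at either time. Of all 14274 genes, these called 33, 137 and 64 higher at 24 h and 30, 179 and 263 at 48 h. Called lower were 0, 14 and 0 at 24 h and 3, 180 and 41 at 48 h. The median of the 7 genes was 0.35 at 24 h, with 5 positive (background 51.5%), and 0.04 at 48 h, with 4 positive (background 50.4%). FASN, the fatty acid synthase, was at 78.7 to 118 CPM with DMSO and 104 to 149 CPM with Molidustat at 24 h, and at 116 to 162 and 135 to 170 CPM at 48 h. The ranges of FASN overlapped at both times, with log2 fold changes of 0.45 (SE 0.29) and 0.04 (SE 0.29), the latter -0.09 (SE 0.27) without DMSO 48 h replicate 2. ACLY, the ATP citrate lyase, showed -0.01 (SE 0.30) and -0.39 (SE 0.30), and ME1, the malic enzyme, 0.21 (SE 0.33) and 0.07 (SE 0.34), with 48 h values of -0.22 and 0.03 without it. ACACA, an acetyl-CoA carboxylase, showed 0.35 (SE 0.47) and -0.53 (SE 0.48), and the 48 h value turned to 0.10 (SE 0.43) without it.

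Low counts limit the other 3 of these genes, which fell to 3 counts or fewer in at least 1 library. ACSS2, an acetyl-CoA synthetase, ran from 0.77 to 27.9 CPM and showed 1.62 (SE 0.68) at 24 h and 0.44 (SE 0.65) at 48 h. AACS, an acetoacetyl-CoA synthetase, showed -0.01 (SE 0.62) and 1.47 (SE 0.66), with values of 2.13 to 4.13 CPM with DMSO and 6.52 to 9.40 CPM with Molidustat at 48 h. ACACB, the mitochondrial carboxylase, did not exceed 4.96 CPM outside DMSO 48 h replicate 2, where it was at 17.0 CPM. Its 48 h log2 fold change was -1.03 (SE 0.83) with that library and -0.12 (SE 0.90) without it. ELOVL5, an elongase of polyunsaturated fatty acids, showed -0.23 (SE 0.36) and 0.07 (SE 0.36), the latter -0.14 (SE 0.34) without it.

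The summed level of each role was also compared between libraries. Such a sum follows its most counted genes, with no correction for transcript length. The gene with the highest mean CPM was HMGCS1 among the mevalonate and isoprenoid enzymes and EBP among the enzymes from squalene to cholesterol. It was SCD among the elongases and desaturases, INSIG1 among the control genes and FASN among the fatty acid synthesis genes. The 8 mevalonate and isoprenoid enzymes came to 3413, 3467 and 4434 CPM with DMSO and 4200, 6165 and 4864 CPM with Molidustat at 24 h, and to 4089, 21472 and 4975 against 4184, 4175 and 4154 CPM at 48 h. The 11 enzymes from squalene to cholesterol came to 4990, 6006 and 6632 against 5918, 6674 and 6201 CPM at 24 h, and to 6403, 28579 and 7379 against 6556, 6898 and 6411 CPM at 48 h. Both sums overlapped at both times and were highest in DMSO 48 h replicate 2. The 5 elongases and desaturases came to 2139, 2152 and 3085 CPM with DMSO and 3227, 4982 and 4061 CPM with Molidustat at 24 h, and to 3303, 15975 and 3892 against 4922, 4317 and 4421 CPM at 48 h. At 24 h the Molidustat sums were all above the DMSO sums, and at 48 h above all but that of replicate 2. The 6 control genes came to 395 to 524 CPM with DMSO and 655 to 868 CPM with Molidustat at 24 h, and to 386 to 783 and 991 to 1193 CPM at 48 h, wholly higher with Molidustat at both times. INSIG2, the called gene, is among these 6, so this sum contains its rise and is not separate evidence on the other control genes. The sums of fatty acid synthesis genes overlapped at both times, at 305 to 319 against 313 to 467 CPM and 360 to 407 against 312 to 395 CPM. All 37 genes together came to 11370 to 18943 CPM in 11 libraries and to 66818 CPM in DMSO 48 h replicate 2.

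Calls for a difference between the 48 h and the 24 h response depended on the filter on low counts. With no filter, edgeR called 2 of the 37 genes lower (HMGCS1 and SCD, among 315 of 28430 genes). With the filter, 0 were called by edgeR (lowest adjusted p = 0.728, background 0% in each direction). DESeq2 (background 0.014% higher and 0.042% lower) and limma-voom (0% in each) also called 0. At an unadjusted p under 0.05, 3 were lower (HMGCS1, MSMO1 and SCD, background 5.6%), and 1 without DMSO 48 h replicate 2 (HMGCS1, background 1.95%).

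Time in culture was compared within each treatment. From 24 h to 48 h with DMSO, 31 of the 37 genes had a positive log2 fold change (background 51.6%) with a median of 0.39, beside 0.02 for all genes. With Molidustat, 28 were positive (background 49.7%) with a median of 0.27, beside -0.00. By edgeR 0 of the 37 were called in either (background 0% higher and 0.00701% lower with DMSO, 0% in each direction with Molidustat), while 10 with DMSO (background 6.76%) and 3 with Molidustat (background 2.39%) were higher at an unadjusted p under 0.05. DESeq2 called 1 gene higher, FADS1, in each (background 0.273% with DMSO and 0.056% with Molidustat), and limma-voom 0 (background 0% in each). The 48 h libraries lay wholly above the 24 h libraries for 10 genes with DMSO (background 5.75%) and 14 with Molidustat (background 7.15%), and wholly below for 0 with DMSO (background 6.19%) and 2 with Molidustat (HMGCS1 and CYP51A1, background 6.79%). FADS1 showed 0.82 (SE 0.29) with DMSO and 0.90 (SE 0.29) with Molidustat, and FADS2 0.64 (SE 0.33) and 0.74 (SE 0.33), without DMSO 48 h replicate 2 0.84 (SE 0.22) for FADS1 and 0.96 (SE 0.22) for FADS2 with DMSO. INSIG2 showed 0.70 (SE 0.29) and 0.62 (SE 0.28). With DMSO 48 h replicate 2 left out, 31 genes were positive with DMSO (background 52.4%) and 28 with Molidustat (background 49.9%), and edgeR again called 0 (background 0% higher and 0.0131% lower with DMSO, 0.0131% in each direction with Molidustat). At an unadjusted p under 0.05 there were then 14 higher (background 2.89%) and 0 lower (background 1.13%) with DMSO, and 9 higher (background 4.38%) and 1 lower, HMGCS1 (background 4.86%), with Molidustat. The 48 h libraries then lay wholly above for 21 genes with DMSO (background 14.5%) and 14 with Molidustat (background 6.98%), and wholly below for 0 (background 8.67%) and 2 (background 6.6%). These comparisons share their libraries with the treatment contrasts.

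Other genes of the pathway gave 0 calls by edgeR in either direction at either time, with 1 higher at 24 h (background 3.73%) and 7 lower at 48 h (background 8.81%) at an unadjusted p under 0.05. These were 11 tested of 12 further elongation, desaturation and mitochondrial fatty acid synthesis genes, 4 of 6 acyl-CoA and acetyl-CoA synthetases and all 7 SREBP cleavage and degradation factors. They also included 11 of 12 LXR, ChREBP and AMPK genes and all 8 genes of sterol esterification and other isoprenoid products. The medians of the 5 lists ran from -0.04 to 0.16 at 24 h and from -0.37 to 0.32 at 48 h. Without DMSO 48 h replicate 2 they ran from -0.03 to 0.17 and from -0.25 to 0.05, again with 0 calls by edgeR. At an unadjusted p under 0.05 there were then 3 higher (background 6.19%) and 2 lower (background 2.85%) at 24 h, and 1 higher (background 3.68%) and 0 lower (background 2.92%) at 48 h. At 24 h, the values farthest from 0 in 4 of the lists were HACD1, a fatty acid dehydratase, at -1.19 (SE 0.63), ACSS3, an acyl-CoA synthetase, at 0.96 (SE 0.51), MYLIP, a ubiquitin ligase under LXR control, at 0.62 (SE 1.02), and LPIN1, a phosphatidate phosphatase, at 1.57 (SE 0.60). At 48 h, those in all 5 lists were HACD1 at -1.03 (SE 0.64), ACSL4 at 0.36 (SE 0.37), SPRING1, a factor needed for SREBP cleavage, at -1.30 (SE 0.59), ABCG1, a sterol exporter, at -1.05 (SE 1.09), and DHDDS, a dolichol synthesis enzyme, at -1.18 (SE 0.46). Of these, SPRING1 (406 CPM), ABCG1 (16.0 CPM) and DHDDS (212 CPM) were highest in DMSO 48 h replicate 2, and their log2 fold changes without it were 0.20, 0.53 and -0.22. HACD1 was then at -1.28 and ACSL4 at 0.09.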

How the data were processed

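RNA was measured in 12 Huh7 libraries, grouped by the labels. The authors prepared 3′ libraries (QIAseq UPX 3′), aligned reads with STAR 2.7.9a to GRCh38 and counted them with HTSeq 0.11.2. The submitters' processing notes also name bcl2fastq 2.17.1.14, cutadapt 1.9.1 and DESeq2 1.26.0. The files as deposited hold raw counts of reads on each gene. Annotation release, strand setting and molecular identifiers are not given in the sources used here, so counts may include PCR copies, and 26 of the 37 genes overlap another gene.

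Genes were named from GENCODE release 44 (60437 of 60666). The 5 summary lines per file were left out of totals. In R 4.3.3, edgeR 4.0.16 (filterByExpr with minimum count 10 and total 15, TMM, quasi-likelihood test, all 4 groups in 1 fit) gave log2 fold changes, standard errors and Benjamini-Hochberg adjusted p-values, and genes at an adjusted p under 0.05 were called. Without DMSO 48 h replicate 2, 15253 genes were tested. Each standard error is the fold change (log2) divided by the root of its F statistic. DESeq2 1.42.0 and limma 3.58.1 were alternatives, and the scripts were tested on simulated data. Promoters are RefSeq sequences of GRCh38.p14. Figures used matplotlib 3.10.9.

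The 37 genes and the lists were chosen with earlier results of these data known. Full values were to be given for genes called in either treatment contrast, for those with Molidustat libraries wholly apart from the DMSO libraries at both times, and for INSIG1, INSIG2, SREBF1 and SREBF2. Of the related lists, called genes and the value farthest from 0 were named, and the HIF targets in full. One value that this rule names is not reported here.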

Additional observations from a re-analysis of the deposited data

How the results depend on the processing

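INSIG2 kept its direction under every alternative and library left out at both times. It stayed called in 10 of 10 alternatives at 24 h and in 9 of 10 at 48 h, the exception being each time point fitted alone (1.80, adjusted p = 0.178 by edgeR), which left 0 of the 37 genes called higher at 48 h. With a library left out, it was called in 9 of 12 fits at 24 h and 10 of 12 at 48 h. The 12 fits include those that left out a library of the other time, which is in neither group compared. Every lost call came from leaving out a library of the time compared, and at 24 h leaving out any of the DMSO libraries lost it. The count of genes called higher was thus 0 to 1 at both times over the edgeR fits that left out a library. It was 2 at 24 h (INSIG2 and SCD, among 219 of 15253 genes) in DESeq2 without DMSO 48 h replicate 2, an alternative chosen after seeing the data. Genes called lower at 48 h numbered 3 with no filter on low counts (HMGCS1, CYP51A1 and ELOVL6, among 610 of 28430 genes). They numbered 1 in DESeq2 (among 180 of 14274) and 0 to 2 when a library was left out. The 2 were called without DMSO 48 h replicate 1, among 272 of 14958 genes. With no filter, 2 genes were called lower for the difference between the times (HMGCS1 and SCD, among 315 of 28430 genes) and 4 higher with time under DMSO (HMGCS1, MSMO1, SCD and ELOVL6, among 387). DESeq2 called 1 gene higher with time in each treatment, among 39 of 14274 genes with DMSO and 8 with Molidustat. Without DMSO 48 h replicate 2 it called 2 (FADS1 and FADS2), among 18 of 15253 genes with DMSO and 57 with Molidustat.

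The median log2 fold change of the 37 genes at 24 h was 0.285 to 0.401 with a library left out. At 48 h it was 0.0472 to 0.305, and 0.217 with total counts in place of TMM, 0.158 in limma-voom, 0.212 with libraries thinned to the smallest total and 0.165 in DESeq2 without DMSO 48 h replicate 2. Total counts brought the median of all genes to 0.13 at 48 h and to -0.13 for DMSO over time, and the value of 0.217 is to be read relative to the former. The cause of the other shifts was not tested. Of 1619 values of single genes under alternatives, 0 reversed a call and 1572 kept their call or, where uncalled, stayed within the replicate spread. These counts say little about stability. INSIG2 was the only gene called in the edgeR fit of all 12 libraries with the filter. For the other genes a reversal could arise only where an alternative called them, and a change of sign in an uncalled gene was not counted. The replicate spread at 48 h includes DMSO 48 h replicate 2, which widens it.

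Over all genes, edgeR called 33 higher and 0 lower at 24 h and 30 and 3 at 48 h. With no filter these were 104 and 2, then 154 and 610. DESeq2 gave 137 and 14, then 179 and 180, and limma-voom 64 and 0, then 263 and 41. Requiring 10 counts in every library gave 15 and 0, then 14 and 1, and each time point alone 57 and 0, then 7 and 0. Without DMSO 48 h replicate 2, edgeR called 113 and 5, then 48 and 5. Without DMSO 48 h replicate 1 the 48 h counts were 55 and 272.

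No sign of pairing by replicate number was seen. Deviations of same-numbered libraries from their group means correlated at 0.0363, -0.024 and 0.144 at 24 h and at -0.0661, -0.0284 and 0.0451 at 48 h. This cannot show that the libraries were prepared apart, because at 48 h the DMSO mean includes DMSO 48 h replicate 2, which shifts all DMSO deviations. With the replicate block, 1 gene was called higher at each time, INSIG2 (log2 fold change 1.91, adjusted p = 0.0171, and 1.83, adjusted p = 0.0283, by edgeR). Depth limits ACSS2, AACS and ACACB, with 3 counts or fewer in at least 1 library.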
